A study of Mus musculus with 20 samples.

Results

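Colonic macrophage preparations from mice labelled Irgm1-/- were compared with those from wild-type mice. The members are the 6 arrays whose labels give colonic macrophages as the material, of 20 arrays in the series: 3 from Irgm1-/- and 3 from wild-type mice. All the mice were C57BL/6 and were kept under pathogen-free barrier conditions. The Irgm1-/- mice were 8, 6 and 6 weeks old and were male, male and female, and the wild-type mice were 8, 6 and 6 weeks old and all female. Each array was hybridised with Cy5-labelled RNA in 1 colour on an Agilent whole-genome mouse design. The other arrays hold small intestine of the same 6 animals and salivary gland of 8 other mice, all female, of which the 4 Irgm1-/- mice were 9 weeks old and the 4 wild-type mice 6, 6, 7 and 7 weeks. How the macrophages were isolated, and which part of the gene the mutant allele lacks, are not given in the sources used here. The labels name separate mice, so p-values measure the spread between mice as prepared.

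Irgm1 encodes an interferon-induced immunity-related GTPase that acts on autophagy, mitochondria and the vacuoles of intracellular microbes, and mice without it are known for raised type I interferon signalling. Type I interferon binds a receptor whose kinases activate a transcription factor complex that holds Irf9, and this complex binds interferon-stimulated response elements in the promoters of antiviral genes. Colonic macrophages sit in the lamina propria under the epithelium, take up microbes and dying cells, and are marked by Csf1r, Cx3cr1, Mertk, Adgre1 and Fcgr1 (CD64).

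Levels are given throughout as log2 of the processed signal minus the 75th percentile of the array, so that a level of 0 lies at that percentile and 1 unit is a 2-fold step. Differences are the mean level on the 3 arrays labelled Irgm1-/- minus the mean on the 3 wild-type arrays. A level is compared between arrays for the same probe only. The share of probes well above background ran from 57.1% to 74.4% over the 6 arrays and the 75th percentile from 922 to 2137 intensity units, and both were lowest on wild-type mouse 1. Between arrays, levels correlated at 0.889 to 0.974 over genes.

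The labels were checked first. Irgm1 itself was brighter, not dimmer, on the arrays labelled Irgm1-/-: its level was 0.50, 0.95 and 0.47 for mice 1 to 3, against -0.69, 0.24 and -0.26 in wild type. No array of one genotype overlapped the other, but the difference of 0.88 (SE 0.31) did not pass (limma, adjusted p = 0.27). A second Irgm1 probe gave a difference of 1.16 in the same direction. A probe outside the deleted part cannot check a knockout, so these signals neither identify nor exclude the mutant allele, and the genotype below is the one on the labels. Of the sex-linked genes, Xist was bright on the 4 arrays of female mice and Ddx3y and Kdm5d were well above background on the 2 arrays of male mice alone, which matches the sex labels of all 6. The other Y-linked genes did not separate the sexes: Eif2s3y was well above background on all 6 arrays and Uty on none.

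Macrophage markers were present but as a list did not stand above small intestine, which is another segment of the gut. Of 23 resident macrophage markers tested, 6 were higher and 14 lower on these arrays than on the small intestine arrays of both genotypes, against 44.2% higher and 43% lower among the 19010 genes compared (limma, adjusted p under 0.05). Itgam (CD11b) stood 3.83 log2 above small intestine, Cd163, a haemoglobin scavenger receptor, 4.62 above and Fcgr1 3.42 above. Csf1r, the receptor for the macrophage growth factor, stood 1.56 below (log2 difference -1.56), and Lyz2 (lysozyme) had a log2 difference of -3.03. Markers of other cells were on the arrays as well: 11 of 17 T cell markers and 8 of 13 B cell markers were above small intestine, while 18 of 20 markers of the absorptive epithelium were below it. The preparations are therefore called by their label, colonic macrophages, with the presence of lymphoid, epithelial and stromal RNA in them as a measured fact. In such bulk samples, fewer cells of a type and less RNA per cell cannot be told apart.

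Few genes passed the test between genotypes. Of 17110 named genes, 4 were higher on the arrays labelled Irgm1-/- (0.0234% of genes tested) and 35 were lower (0.205%), by limma at an adjusted p under 0.05. All 39 changed by at least 2-fold, with no overlap between the genotypes. An unadjusted p under 0.05 was reached by 2039 genes, 743 higher and 1296 lower, and the median difference over all genes was 0.09. A fit with the mouse number as a paired replicate block called 360 genes higher (2.11% of 17097) and 947 lower (5.54%), the 39 among them. Same-numbered mice share an age and a slide and deviated together. Mice 2 and 3 of both genotypes were all 6 weeks old, and only the mouse 3 arrays lay on slide 2. The pairing was assumed, so calls made only with the block depend on it. Without overlap of the groups, and with no test, 7.63% of genes were higher and 9.09% lower. The counts of list members below are to be read beside these counts over all genes.

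The genes that rose were antiviral sensors and effectors, with 1 transcription factor. Oas3, which makes the 2'-5' oligoadenylates that switch on RNase L, read 1.81, 1.79 and 0.82 on the arrays labelled Irgm1-/- and -2.71, -1.51 and -1.97 on the wild-type arrays. The genotypes were far apart, and the difference was 3.54 (SE 0.40, adjusted p = 0.00984). Oas2, an enzyme of the same kind, read 0.65, 1.19 and 0.28 against -2.62, -1.49 and -1.54. Its difference was 2.59 (SE 0.38, adjusted p = 0.0464), again with every Irgm1-/- array above every wild-type array. Dhx58 (LGP2), a regulator of the RNA sensors RIG-I and MDA5, read -1.07, -0.98 and -1.82 against -3.53, -3.37 and -3.50. That gave a difference of 2.18 (SE 0.29, adjusted p = 0.0319).

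Mycl, a Myc-family transcription factor expressed in dendritic cells, was the remaining gene that rose. It read -0.85, -2.02 and -1.86 on the arrays labelled Irgm1-/- and stayed below the detection limit (not well above local background) in all wild-type mice, where it read -4.06, -3.85 and -4.13. It was at least 4.47-fold higher, taking the dimmest signal well above background as the wild-type level, and its adjusted p was 0.0377. Mycl entered the test through the Irgm1-/- arrays alone, so its direction was thereby set. Abo, a glycosyltransferase of the blood group system, came next by p-value and did not pass, with -1.34, -2.20 and -2.05 against -3.75, -3.63 and -3.91 and a difference of 1.90 (SE 0.29, adjusted p = 0.0524). Oas3 passed without each array in turn, with adjusted p from 0.0118 to 0.0485. The other three did not in every case: the adjusted p ran from 0.0159 to 0.127 for Dhx58, from 0.0504 to 0.136 for Mycl and from 0.0543 to 0.129 for Oas2. None of the 4 passed on slide 1 alone (2 against 2), on the female arrays alone or with sex as a covariate, where the adjusted p was 0.356 for Oas3 and 0.63 for each of the others.

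Most type I interferon-induced genes lay on the higher side, few of them past the test without the block. Of 51 members tested, 3 passed and were higher, none passed and was lower, and the median difference was 0.91 against 0.09 for all genes. With the mouse number as a block, 25 of the 51 were higher (2.11% of all genes) and 1 was lower (5.54% of all genes). Of the 51, 46 had a positive difference, and 45 were higher in all 3 same-numbered pairs of mice, compared with 26.5% of all genes. In 32 of them the groups did not overlap with the Irgm1-/- arrays higher (7.63% of all genes), and in 1 with these arrays lower (9.09%). Over the 23 alternative settings the median of the list stayed between 0.74 and 1.16. The 3 listed genes not tested were Ifit2, Mx1 and Trim21.

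**Figure D1:**
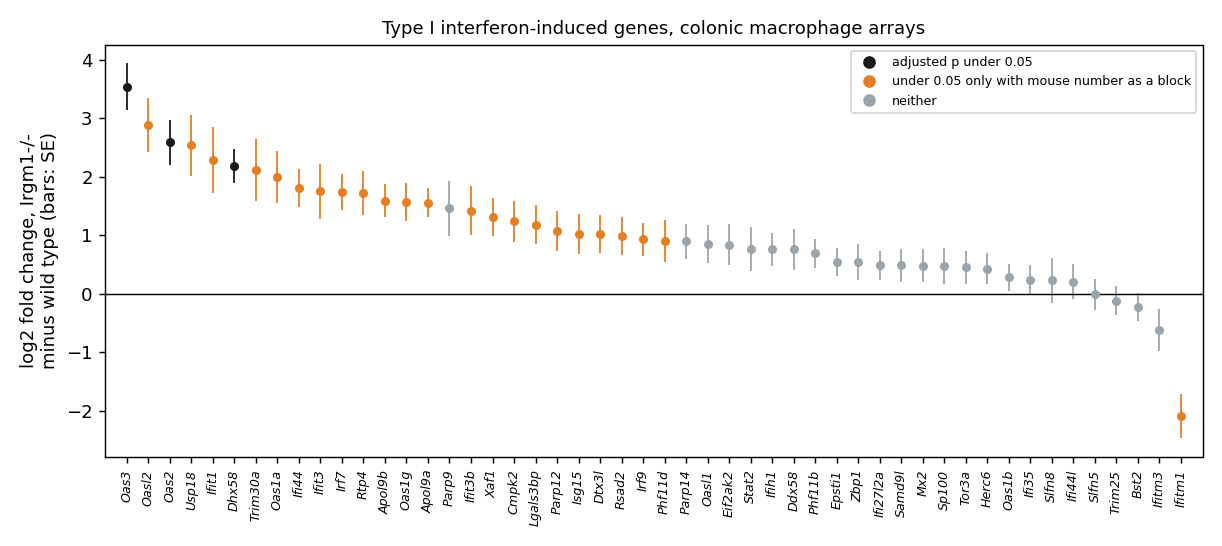
Difference between genotypes (Irgm1-/- minus wild type, log2, vertical axis; bars are the SE of the limma fit without a block) for 50 of the 51 type I interferon-induced genes tested, in order of size. The 3 genes in black passed without a block; the orange ones passed with the mouse number as a block, Ifitm1 as the single lower one at -2.09.

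Among the members that passed with the block, Irf7, the transcription factor that amplifies interferon production, read 2.36, 2.67 and 1.87 against 0.88, 0.53 and 0.27. Its difference was 1.74 (SE 0.30, adjusted p = 0.0661 without and 0.0109 with the block). Ifit3, an antiviral protein of the IFIT family, read 2.02, 3.08 and 2.70 against -0.05, 1.77 and 0.81, a difference of 1.75 (SE 0.47). Without the block its adjusted p was 0.14 and with it 0.0109, and mouse 2 was the highest of both groups. Ifit1, which binds uncapped viral RNA, read -1.17, -0.36 and -1.28 against -4.31, -1.94 and -3.41, a difference of 2.29 (SE 0.56, adjusted p = 0.115 without and 0.0124 with the block). Isg15, a ubiquitin-like modifier, read 0.43, 0.93 and 0.53 against -0.98, 0.20 and -0.39, a difference of 1.02 (SE 0.34, adjusted p = 0.236 without and 0.0353 with the block).

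Apol9a and Apol9b, a pair of near-identical apolipoprotein L genes whose probes may share signal, gave differences of 1.56 (SE 0.25) and 1.59 (SE 0.28). Their adjusted p was 0.056 and 0.0665 without the block and 0.0131 and 0.0151 with it. Irf9, the DNA-binding part of the interferon-activated complex, gave 0.93 (SE 0.28, adjusted p = 0.177 without and 0.0445 with the block). The member in the other direction was Ifitm1, a membrane protein that restricts viral entry, at -2.09 (adjusted p = 0.0687 without and 0.0109 with the block). It was singled out after its value was seen.

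Promoter sequences of the interferon-induced genes are shown because that complex reads a known motif there. RefSeq windows from 250 bases before to 50 bases after a transcription start (GRCm38.p6) were searched on both strands for GAAA followed by any 2 bases and GAAA, the core of the response element, and for TTCNNNGAA, the core of the gamma-activated site. The first was in 3.44% of 32851 windows and, by gene, in 486 of 12558 tested genes with a window (3.87%). It was in 20 of 39 interferon-list members with a window (51.3%), in 22 of 255 genes called higher with the block (8.63%) and in 30 of 672 called lower (4.46%). The 22 include interferon-list members such as Oas3, Ifit1 and Isg15, so the first 2 shares overlap. The share among risen genes outside the list is not given by the 8.63%. The second was in 8.3% of windows, in 12.8% of the list, in 6.27% of genes called higher with the block and in 9.52% of those called lower. Of the 4 genes that rose without the block, Oas3 and Mycl had a window, and Oas3 alone held the first motif. Oas3 and the 3 further members with the largest difference among those that passed with the block and held the motif, chosen after their values were seen, are given 5' to 3' on the strand of the gene, with every match of the motif in capitals. A capital run of TTTC, 2 bases and TTTC is a match on the opposite strand.
Oas3: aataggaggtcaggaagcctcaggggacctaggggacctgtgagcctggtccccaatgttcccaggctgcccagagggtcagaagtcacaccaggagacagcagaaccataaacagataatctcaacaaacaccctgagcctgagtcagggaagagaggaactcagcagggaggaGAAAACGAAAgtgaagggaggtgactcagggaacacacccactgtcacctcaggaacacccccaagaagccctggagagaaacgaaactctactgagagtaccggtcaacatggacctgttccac
Ifit1: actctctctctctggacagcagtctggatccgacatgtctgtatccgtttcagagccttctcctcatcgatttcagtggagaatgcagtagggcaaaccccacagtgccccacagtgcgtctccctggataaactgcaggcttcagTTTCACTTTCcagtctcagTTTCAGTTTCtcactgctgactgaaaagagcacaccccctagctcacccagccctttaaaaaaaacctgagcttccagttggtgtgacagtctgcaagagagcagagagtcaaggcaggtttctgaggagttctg
Trim30a: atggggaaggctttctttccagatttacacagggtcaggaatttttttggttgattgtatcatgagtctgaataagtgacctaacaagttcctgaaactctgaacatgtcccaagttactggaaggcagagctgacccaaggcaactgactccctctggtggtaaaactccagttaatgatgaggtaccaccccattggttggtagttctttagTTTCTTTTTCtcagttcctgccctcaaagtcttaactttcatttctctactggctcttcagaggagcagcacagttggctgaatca
Oas1a: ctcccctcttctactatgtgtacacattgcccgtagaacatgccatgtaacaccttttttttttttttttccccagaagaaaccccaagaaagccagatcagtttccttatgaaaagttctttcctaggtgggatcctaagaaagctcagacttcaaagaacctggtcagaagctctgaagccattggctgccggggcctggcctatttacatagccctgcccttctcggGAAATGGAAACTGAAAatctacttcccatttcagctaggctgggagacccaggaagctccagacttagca

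The Oas3 window lies at chr5:120777610-120777909 on the minus strand and its match begins 75 bases before the start. The Ifit1 window, at chr19:34640639-34640938 on the plus strand, holds 2 matches that begin 104 and 85 bases before the start. Trim30a, which encodes a tripartite motif protein, has its window at chr7:104465144-104465443 on the minus strand, with 1 match from 36 bases before the start. Oas1a has its window at chr5:120907476-120907775 on the minus strand, with 2 overlapping matches from 20 and 14 bases before the start. Trim30a differed between the genotypes by 2.11 (SE 0.53). Oas1a read 4.13, 4.04 and 2.82 on the arrays labelled Irgm1-/- against 2.35, 1.63 and 1.02 in wild type, with no overlap (adjusted p = 0.102 without and 0.0102 with the block). A match describes letters in the window and is neither a site nor a cause.

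The GTPase family of Irgm1 gave no call. Of 15 immunity-related GTPases and guanylate-binding proteins tested, none passed (limma), and 2 were higher at an unadjusted p under 0.05 (743 of all 17110 genes). Irgm1 alone passed with the block (adjusted p = 0.0473), where 2.11% of all genes were higher. The median difference was 0.09, the same as for all genes, and lay between -0.12 and 0.49 over the alternatives, so that its sign is not settled. Irgm2, a regulator of the same family, read -2.44, -1.64 and -2.46 against -2.75, -1.39 and -2.35, a difference of -0.02 (SE 0.40, adjusted p = 0.996). Igtp (Irgm3) read -0.87, -0.23 and -0.53 against -2.50, -0.54 and -1.92, a difference of 1.11 (SE 0.47, adjusted p = 0.396).

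Genes that make, sense or answer interferon in other ways were mixed. Of 11 interferons, receptors and kinases none passed, 2 were lower at an unadjusted p under 0.05 (1296 of all 17110 genes), and the median was -0.12. Ifnb1, which encodes interferon beta, read -4.37, -3.72 and -3.67 against -2.60, -2.54 and -2.34, a difference of -1.43 (SE 0.28, adjusted p = 0.0809 without and 0.0138 with the block). It was well above background on 1 of the 3 arrays labelled Irgm1-/- and on all 3 wild-type arrays, so its difference was opposite in sign to that of the interferon-induced genes. Ifnar2, a chain of the interferon receptor, gave -1.38 (SE 0.41, adjusted p = 0.174 without and 0.0164 with the block). The 9 interferon regulatory factors had a median of 0.14, and 2 were higher with the block (2.11% of all genes). Among 16 cytosolic nucleic acid sensors Dhx58 alone passed, and the median was 0.12. Among 20 genes of MHC class I antigen processing none passed and 18 had a positive difference, with a median of 0.30. At an unadjusted p under 0.05, 1 of them was higher (743 of all 17110 genes). B2m, the light chain of class I molecules, gave 0.28 (SE 0.24), and Tap1, the peptide transporter, 0.61 (SE 0.28).

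Chemokines and inflammatory cytokines gave no call in either direction, with 2 and 3 members lower at an unadjusted p under 0.05 (1296 of all 17110 genes). Over 23 chemokines the median was -0.20, with 18 negative differences, and 3 were lower with the block (5.54% of all genes). Cxcl10, an interferon-induced attractant of T cells, read -0.06, 1.73 and 0.65 against 0.23, 1.03 and 0.07, and a second probe gave the opposite sign (0.33 and -0.54). Cxcl9, of the same group, gave 0.35 (SE 0.53), and Ccl11 (eotaxin) -1.90 (SE 0.57, adjusted p = 0.178 without and 0.00939 with the block). Tnf gave 0.26 (SE 0.39), Il1b -1.09 (SE 0.56), Il6 -1.58 (SE 1.05) and Nos2, the inducible nitric oxide synthase, 0.27 (SE 0.44), all with overlapping groups. Ptgs2 (cyclooxygenase 2) read -3.81, -2.04 and -3.05 against -1.56, 0.65 and -1.30, a difference of -2.23 (SE 0.63, adjusted p = 0.156 without and 0.0101 with the block). Il10 was not well above background on enough arrays to be tested.

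**Figure D2:**
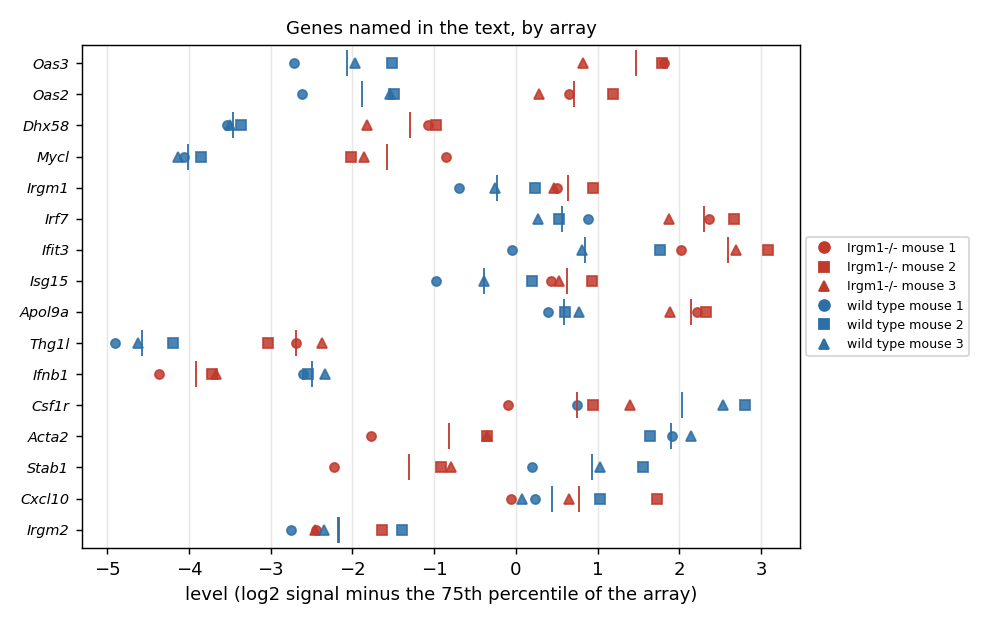
Level of 16 genes on each of the 6 arrays (horizontal axis, log2 signal minus the 75th percentile of the array; symbols are mice, vertical ticks are group means; levels compare between arrays within a gene). Oas3, Oas2, Dhx58 and Mycl separate the genotypes widely, Irgm2 and Cxcl10 overlap, and Ifnb1, Acta2 and Stab1 are lower on the arrays labelled Irgm1-/-.

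The largest called differences lay in digestive enzymes of the exocrine pancreas, which acinar cells secrete into the gut. Of 14 tested markers of the pancreatic acinar cell, 13 passed and were lower on the arrays labelled Irgm1-/- (0.205% of all genes), and the median difference was -6.98. Cela2a, Prss1, Cpb1 and Reg1 were well above background on the wild-type arrays alone and entered the test through them. Their direction was thereby set, and the count and median include them. Cel and Ctrb1 were well above background on all 6 arrays and passed as well. Cela2a, a pancreatic elastase, read -5.99, -6.00 and -5.12 on the Irgm1-/- arrays, none well above background, and 6.78, 5.39 and 4.66 in wild type. It was at least 739-fold lower (log2 difference -11.31, SE 0.52, adjusted p = 0.000131). That log2 difference rests on Irgm1-/- signals below the detection limit, so its exact size is uncertain. Prss2, a trypsinogen, read -5.29, -5.33 and -3.96 against 7.17, 5.57 and 4.99 (adjusted p = 0.000159). Amy2a5, the pancreatic amylase, read -3.57, -3.35 and -2.50 against 6.48, 5.53 and 4.57 (adjusted p = 0.000159). Both were well above background on 1 of the 3 Irgm1-/- arrays, so the size of their differences is uncertain too. The wild-type levels of these 3 genes were highest in mouse 1 and lowest in mouse 3, and no Irgm1-/- array came near them.

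Other members of the list fell as well. Cpb1, a carboxypeptidase, was at least 189-fold lower, and Reg1, a secreted lectin of acinar cells, at least 90-fold lower. Prss1, another trypsinogen, was at least 24.7-fold lower, with a second probe at -9.48. Pnlip (pancreatic lipase), with a log2 difference of -7.75, was well above background on 2 of the 3 Irgm1-/- arrays. The log2 difference was -7.01 for Cel (bile salt-activated lipase) and -6.94 for Ctrb1 (chymotrypsinogen). Beyond the list, the trypsinogen Try4 was at least 665-fold lower, Pnliprp1 (a lipase-related protein) at least 185-fold and Gp2 (the zymogen granule membrane glycoprotein) at least 49.7-fold. Try4, Pnliprp1 and Gp2 were also well above background on the wild-type arrays alone and entered the test through them, which set their direction. Try5, another trypsinogen, passed as well, with 1 of 3 Irgm1-/- arrays above background, and Ctrl (a chymotrypsin-like enzyme) had a log2 difference of -5.65. The trypsinogens and the amylases are families of near-identical genes, so their probes may share signal.

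Acinar RNA was not absent from the arrays labelled Irgm1-/-: 7 of the 14 list members were well above background on all 6 arrays. The summed linear level of the list (1 unit is the 75th percentile) was 11.7 to 15.4 there and 257 to 1190 in wild type. Averaged over both genotypes, 12 of the 14 were higher on the macrophage than on the small intestine arrays and 1 was lower. As the genotypes lay far apart, this average does not show that each of them lay above small intestine. For Cela2a the mean level was -5.70 on Irgm1-/- macrophage arrays, 5.61 on wild-type ones and -6.95 on small intestine arrays. In small intestine of the same mice the genotype difference did not pass for the following members: -0.37 for Cel (adjusted p = 0.704), 0.09 for Cpb1 (adjusted p = 0.86) and -0.27 for Ctrb1 (adjusted p = 0.663). Of 8 list members that could be tested in both tissues, 7 differed by more in macrophages, all more negative there (1.7% of the 13567 genes tested in both). The 7 include Cpb1 and Reg1, which passed the macrophage filter through the wild-type arrays alone. The direction of their macrophage difference was thereby set.

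**Figure D3:**
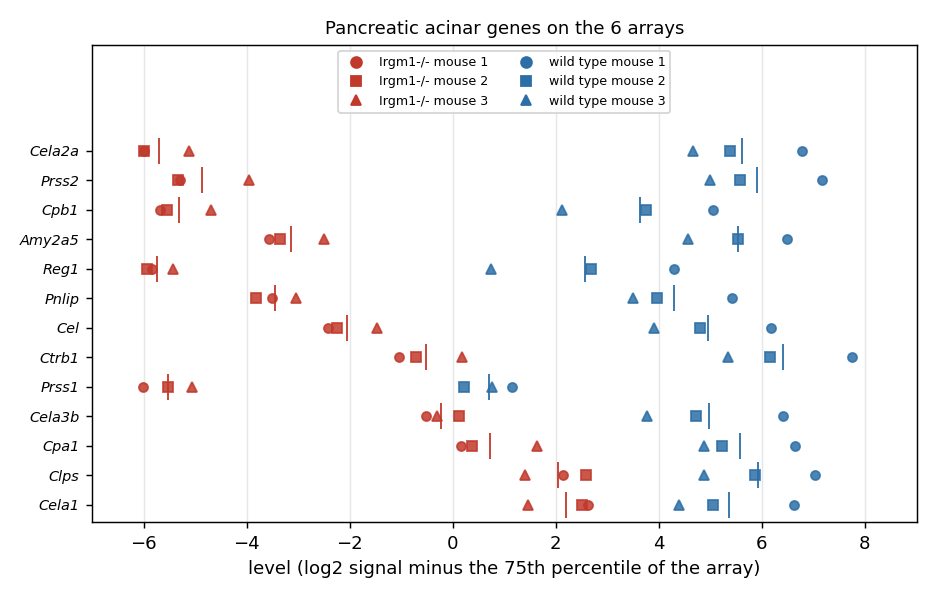
Level of 13 of the 14 tested pancreatic acinar genes on the 6 arrays (horizontal axis, log2 signal minus the 75th percentile of the array; symbols are mice, vertical ticks group means). Every wild-type array lies above every array labelled Irgm1-/- for all 13 genes drawn, with a difference of -11.31 for Cela2a and -3.16 for Cela1. Cela2a was not well above background on any Irgm1-/- array, so the size of its difference is uncertain.

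Of the 35 lower genes, 22 were outside the acinar list, among them the further pancreatic genes just named. Acta2, the smooth muscle actin, also fell and read -1.77, -0.35 and -0.35 against 1.91, 1.64 and 2.14, a difference of -2.72 (SE 0.41, adjusted p = 0.0473). Of 9 smooth muscle markers tested, Acta2 alone passed, 5 were lower with the block (5.54% of all genes), and the median was -1.12, or -0.59 on the female arrays alone. Acta2 passed in 9 of 22 alternatives: its adjusted p ran from 0.0485 to 0.154 with 1 array left out, where it passed only without Irgm1-/- mouse 1. With sex as a covariate it was 0.63. The following called genes lie outside the naming rule and were picked after their values were seen. Pdlim3, an actin-binding protein of muscle not above background on the Irgm1-/- arrays, was at least 3.39-fold lower. It entered the test through the wild-type arrays alone, which set its direction. The log2 difference was -2.42 for Pgm5, a protein of muscle adhesion sites above background on 2 of 3 Irgm1-/- arrays, and -2.73 for Ppp1r14a, an inhibitor of myosin phosphatase in smooth muscle. It was -1.99 for Egfl7, an endothelial protein, -2.04 for Emilin1, an elastic fibre glycoprotein, and -3.31 for Hhip, a decoy for hedgehog ligands above background on 2 of 3 Irgm1-/- arrays. For all of these the groups did not overlap.

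Stromal lists had low medians although few or no members passed without the block. All 14 fibroblast markers tested were lower, with no overlap between the groups in any (9.09% of all genes) and a median of -1.66. None passed without the block although all 14 had an unadjusted p under 0.05, and 12 passed with it (5.54% of all genes). Col6a1, a collagen chain, read 1.91, 3.51 and 2.80 against 4.21, 4.75 and 4.41, a difference of -1.72 (SE 0.40, adjusted p = 0.107 without and 0.0144 with the block). Mouse 1 of the Irgm1-/- group was the lowest array for this gene. The summed level of the fibroblast list was 70.7 to 192 on the arrays labelled Irgm1-/- and 288 to 342 in wild type.

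The endothelial list followed with a median of -0.74. On the female arrays alone it was -0.40. Of its 11 members 3 were lower with the block (5.54% of all genes), among them Tie1, a vascular receptor tyrosine kinase, which read -2.70, -2.10 and -1.46 against 0.00, 0.10 and 0.42, a difference of -2.26 (SE 0.34, adjusted p = 0.0524). The matrix remodelling list, of proteases and their inhibitors, had a median of -1.43, and 10 of its 13 members were lower with the block, against the same 5.54%. Mmp14, a membrane-bound metalloproteinase, gave -1.38 (SE 0.29, adjusted p = 0.0932), and Timp3, an inhibitor of such enzymes, -1.43 (SE 0.29, adjusted p = 0.0919). The part of fibroblast, muscle and vessel RNA in these differences was not tested.

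**Figure D4:**
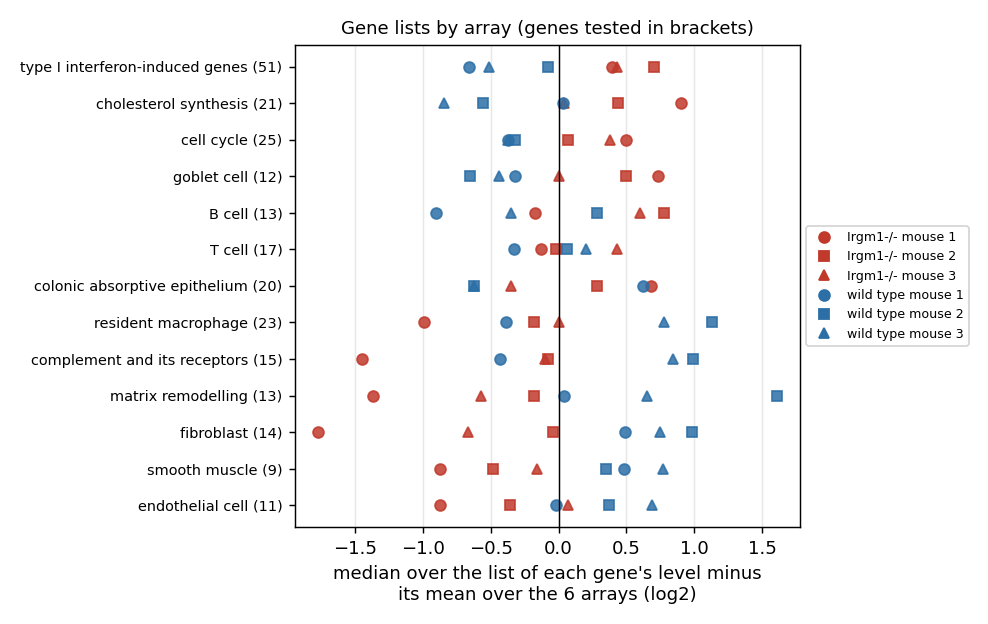
For 13 gene lists (vertical axis, genes tested in brackets), the median over the list of each gene's level minus its own mean over the 6 arrays (horizontal axis, log2); symbols are mice. Fibroblast, smooth muscle and matrix remodelling lists separate the genotypes with the Irgm1-/- arrays lower, type I interferon, cell cycle and goblet cell lists with them higher, and the T cell and absorptive epithelium lists overlap.

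Most macrophage markers had a negative difference, 19 of 23. None of the 23 tested passed without the block, 8 were lower at an unadjusted p under 0.05, 10 were lower with the block (5.54% of all genes) and none was higher, and the median was -1.02. That median was -0.56 without Irgm1-/- mouse 1, -0.43 without wild-type mouse 2, -1.55 without wild-type mouse 1 and -0.58 on the female arrays alone. Csf1r read -0.10, 0.94 and 1.40 against 0.75, 2.81 and 2.54, a difference of -1.28 (SE 0.58, adjusted p = 0.439 without and 0.0282 with the block). The groups overlapped, since wild-type mouse 1 lay below Irgm1-/- mice 2 and 3, and its other probes gave from -1.73 to 0.08. Cx3cr1, the fractalkine receptor, read -3.67, -2.70 and -1.62 against -2.16, -0.61 and -0.74, a difference of -1.49 (SE 0.57, adjusted p = 0.327 without and 0.0224 with the block). Cd163 gave -1.99 (SE 0.70), Maf, a transcription factor of resident macrophages, -1.31 (SE 0.43) and Lyz2 -1.28 (SE 0.44), each under the threshold with the block only.

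Other defining markers did not pass with or without the block. Adgre1 gave -0.37 (SE 0.30, adjusted p = 0.752), Cd68, a lysosomal glycoprotein of macrophages, -0.42 (SE 0.40, adjusted p = 0.807), Mertk, a receptor for dying cells, -0.38 (SE 0.25, adjusted p = 0.675), Itgam -0.16 (SE 0.30, adjusted p = 0.913) and Fcgr1 0.36 (SE 0.26, adjusted p = 0.715). Ccr2, the receptor that brings monocytes into the gut, gave -0.65 (SE 0.64, adjusted p = 0.817). Summed over the list, the level was 180 to 269 on the arrays labelled Irgm1-/- and 238 to 304 in wild type, so the ranges overlapped. The part of macrophage number in the differences above and below was not tested.

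Complement genes also had mostly negative differences, 12 of 15. Among 15 tested, none passed without the block, 6 were lower and 1 higher both at an unadjusted p under 0.05 and with the block (5.54% and 2.11% of all genes with the block), and the median was -1.10. Without Irgm1-/- mouse 1 the median was -0.66, without wild-type mouse 2 -0.54 and on the female arrays alone -0.66. C1s1, a protease of the classical pathway, read 1.35, 2.67 and 2.16 against 3.49, 3.94 and 3.81, a difference of -1.69 (SE 0.36, adjusted p = 0.094 without and 0.0123 with the block). Serping1, the inhibitor of that protease, gave -1.83 (SE 0.42, adjusted p = 0.104 without and 0.0155 with the block). Both had their lowest value in Irgm1-/- mouse 1, and no values overlapped between genotypes. Stab1, a scavenger receptor, read -2.23, -0.92 and -0.79 against 0.20, 1.55 and 1.03, a difference of -2.24 (SE 0.47, adjusted p = 0.0932 without and 0.00939 with the block). Axl, a receptor for dying cells, gave -1.99 (SE 0.51, adjusted p = 0.125 without and 0.0227 with the block). Over the 18 Fc receptors, scavenger receptors and phagocytosis genes the median was -0.48 and 17 differences were negative.

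Lysosomal and autophagy genes belong to the cell biology in which Irgm1 is known to act. Of 25 lysosomal genes none passed, and 4 were lower at an unadjusted p under 0.05 (1296 of all 17110 genes were). With the block 2 were lower (5.54% of all genes), and the median was -0.19. Ctsa (cathepsin A) read 0.81, 0.97 and 0.87 against 1.51, 2.20 and 2.24, a difference of -1.09 (SE 0.28, adjusted p = 0.126 without and 0.0291 with the block). Ctsl (cathepsin L) gave -1.07 (SE 0.29, adjusted p = 0.142 without and 0.022 with the block). Of 30 autophagy and mitophagy genes none passed with or without the block, and the median was -0.13. At an unadjusted p under 0.05, 4 of them were lower (1296 of all 17110 genes). Gabarapl1, an autophagosome protein, gave -0.66 (SE 0.23) and Bnip3, a mitophagy receptor, -0.70 (SE 0.26). Without the block no member passed in these further lists, whose medians are in brackets: Toll-like receptors (-0.11), inflammasome genes (0.37), brakes on cytokine signalling (-0.06), the unfolded protein response (-0.13), glycolysis (0.31), MHC class II presentation (0.14), oxidative and antimicrobial effectors (-0.32), alternative activation (-0.56), iron and haem handling (-0.26), lipid efflux (-0.04) and immediate early and heat shock genes (-0.19). With the block, members passed in all of these lists except the Toll-like receptors. Lower were 3 of 14 antimicrobial effectors, 3 of 13 iron and haem genes, 2 of 13 of alternative activation and 2 of 14 of lipid efflux. In each other list, of 13 to 23 genes tested, 1 was lower, and 1 iron and haem gene was higher. Over all genes, 5.54% were lower and 2.11% higher with the block. The female arrays alone gave -0.16 for alternative activation, and the median of antimicrobial effectors ran from -0.75 to 0.03 with 1 array left out.

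Genes of sterol synthesis and cell division lay on the higher side. All 21 cholesterol synthesis genes tested had a positive difference. None passed without the block, 11 had an unadjusted p under 0.05, 9 were higher with the block (2.11% of all genes), and the median was 0.90. Idi1, which isomerises isopentenyl diphosphate, read 0.31, -0.26 and -0.60 against -1.63, -1.46 and -2.09, a difference of 1.54 (SE 0.32, adjusted p = 0.0919 without and 0.0131 with the block). Cyp51, a sterol demethylase, was below the detection limit in all wild-type mice and was at least 1.20-fold higher (adjusted p = 0.112). It entered the test through the Irgm1-/- arrays alone, which set its direction. All 25 cell cycle genes had a positive difference as well, with a median of 0.74, of which 13 had an unadjusted p under 0.05 and 4 were higher with the block (2.11% of all genes). Cdc20, an activator of the anaphase-promoting complex, gave 1.04 (SE 0.35) and Cdk1, the mitotic kinase, 1.28 (SE 0.43). All 38 oxidative phosphorylation genes were positive with a median of 0.44, and none passed with or without the block or had an unadjusted p under 0.05. That median was 0.21 without Irgm1-/- mouse 1, 0.27 without wild-type mouse 3, 0.66 without Irgm1-/- mouse 3 and 0.68 without wild-type mouse 1. On the female arrays alone (1 against 3) the medians were 0.44 for sterol synthesis, 0.76 for the cell cycle and 0.02 for oxidative phosphorylation.

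Epithelial secretory markers lay on the higher side too. Of 12 goblet cell markers tested, 5 were higher with the block (2.11% of all genes) and none was lower, and the median was 0.90, or 0.50 on the female arrays alone and 0.43 within slide 2. Atoh1, the transcription factor of secretory cells, read 1.18, 0.74 and 0.03 against -1.80, -0.61 and -1.03, a difference of 1.79 (SE 0.40, adjusted p = 0.0979 without and 0.0371 with the block). Agr2, a disulphide isomerase needed for mucin, gave 1.23 (SE 0.29, adjusted p = 0.107 without and 0.0337 with the block). The summed goblet level was 180 to 313 on the arrays labelled Irgm1-/- and 131 to 216 in wild type. Medians were 0.69 for 10 enteroendocrine and 0.64 for 7 stem and crypt markers, and 0.41 for the 20 markers of absorptive epithelium, whose summed level was 212 to 415 against 182 to 443. The sign of this last median turned on the female arrays alone (-0.14), and it ran from 0.19 without Irgm1-/- mouse 1 to 0.78 without wild-type mouse 1. The part of epithelial RNA in the sterol, cell cycle and oxidative phosphorylation values was not tested.

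Lymphoid markers gave no call without the block. The 13 B cell markers had a median of 0.90, or 0.49 without wild-type mouse 1, and 3 were higher with the block (2.11% of all genes). Ms4a1 (CD20) read -1.73, -1.15 and -1.30 against -2.52, -1.75 and -2.91, with no overlap (adjusted p = 0.256). The 17 T cell markers had a median of 0.05, and the 11 markers of NK and innate lymphoid cells -0.09. With the block 1 of the latter was lower (5.54% of all genes). Monocyte, dendritic cell, neutrophil and plasma cell lists had medians of -0.21, -0.14, 0.13 and -0.02, and no member passed without the block. With it, 2 of 12 monocyte and 1 of 11 dendritic cell markers were lower (5.54% of all genes). Nor without the block did any member of the mast cell (0.26), eosinophil (0.15), small-intestinal enterocyte (-0.17), Paneth cell (-0.07), enteric neuron and glia (-0.15), erythroid (-0.23) and adipocyte (-0.07) lists, whose medians are in brackets. With the block 1 of 8 enterocyte and 1 of 7 Paneth cell markers were higher (2.11% of all genes). Lower with it were 2 of the 7 Paneth cell markers and 1 of 7 adipocyte markers (5.54% of all genes).

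The macrophage difference was then set against that in small intestine of the same mice. In 1 fit over all 20 arrays, 43 of 13567 genes had a more positive difference in macrophages (0.317%) and 230 a more negative one (1.7%). With the animal as a random block, as both tissues came from the same mice, the counts were 139 and 434. When each array was set to its median they were 4 and 91. The type I interferon list had a median of 0.91 in macrophages and 1.08 in small intestine (49 genes), and of the 49 members tested for a difference none was more positive and 4 more negative in macrophages. The list of GTPases around Irgm1 had medians of 0.09 and 1.18, yet none of the 15 passed the test of the difference between tissues. Cholesterol synthesis had medians of 0.90 and -0.29, and 2 of 21 genes passed, both more positive in macrophages. Idi1 was one of them, at 1.54 in macrophages and -0.56 in small intestine (difference 2.11, SE 0.40, adjusted p = 0.0162).

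Other genes whose difference was more positive in macrophages than in small intestine were Rida, an imine deaminase (difference 1.18, adjusted p = 0.00799), Svip, an inhibitor of the VCP ATPase (1.56, adjusted p = 0.00913), Fut4, a fucosyltransferase (2.14, adjusted p = 0.0139), and Pla2g2f, a secreted phospholipase (2.49, adjusted p = 0.0166). None of the 4 passed within macrophages alone without the block, and all did with it. Fibroblast genes had medians of -1.66 in macrophages and 0.19 in small intestine, and 6 of 14 were more negative in macrophages.

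Salivary gland of other mice, 4 of each genotype, was compared in the same way. There the Irgm1-/- mice were all older than the wild-type mice, so age and genotype cannot be told apart. Its own differences are scaled to the probes detected on all its arrays and those in the joint test to all probes, so they need not subtract exactly. The medians in salivary gland were 2.79 for the type I interferon list (35 genes) and 3.16 for the GTPase list (11 genes). Of 9244 genes tested in both, 165 were more positive in macrophages (1.78%) and 634 more negative (6.86%), and 9 and 420 when each array was set to its median. Of the 35 interferon-list members 21 were more negative in macrophages and none more positive, and of the 11 GTPases 8 were more negative. Apol9b differed by 1.59 in macrophages and 5.38 in salivary gland (difference -3.69, SE 0.29, adjusted p = 1.04e-06), and B2m by 0.28 and 3.35 (difference -2.97, SE 0.28, adjusted p = 6.4e-06). Irgm1 itself differed by 0.88, 1.16 and 2.64 in macrophages, small intestine and salivary gland. The difference of Oas2 was 2.59, 3.40 and 5.08 in the same order, and that of Dhx58 was 2.18, 1.97 and 2.79. Oas3 gave 3.54 in macrophages and 2.04 in small intestine, and the difference between them did not pass (adjusted p = 0.243).

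**Figure D5:**
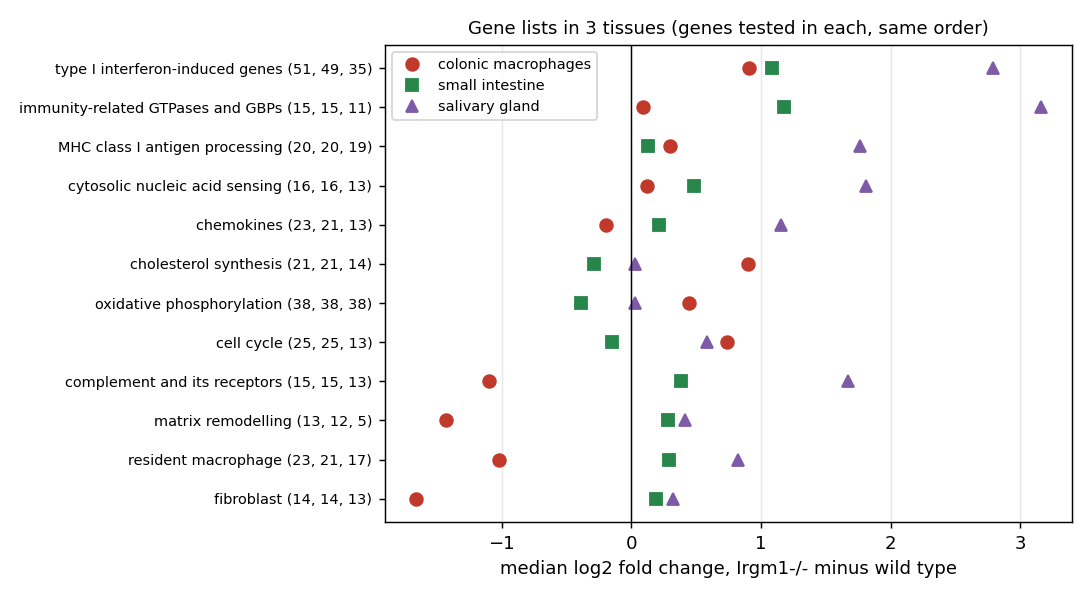
Median log2 difference between genotypes (horizontal axis, Irgm1-/- minus wild type) of 12 gene lists in colonic macrophages, small intestine and salivary gland, with the genes tested in each in brackets. The type I interferon list lies at 0.91, 1.08 and 2.79 in that order. The fibroblast, matrix remodelling, complement, resident macrophage and chemokine lists lie below 0 in macrophages alone of the 3 tissues.

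Genes that lie beside Irgm1 on its chromosome were looked at because a mutant allele carries its neighbours with it. Of 24 tested none passed in macrophages without the block, and the median was 0.09. With the block 1 was higher and 3 were lower (2.11% and 5.54% of all genes). Among the lower ones, Sgcd gave -2.07 (SE 0.38, adjusted p = 0.0741 without and 0.022 with the block). Its groups did not overlap, and a second probe gave -2.28. Thg1l, which adds a guanosine to histidine tRNA, read -2.69, -3.03 and -2.37 on the arrays labelled Irgm1-/-. It stayed below the detection limit in all wild-type mice, at -4.91, -4.19 and -4.62. It was at least 2.18-fold higher, and its adjusted p was 0.0524 without and 0.0138 with the block. Thg1l, the 1 neighbour higher with the block, entered the test through the Irgm1-/- arrays alone, which set its direction. In small intestine of the same mice its difference was 5.85, and in salivary gland -0.53. The macrophage difference was more negative than the first (-3.97, SE 0.37, adjusted p = 3.6e-05) and more positive than the second (2.51, SE 0.34, adjusted p = 0.000192). Nnt, a mitochondrial transhydrogenase not among the neighbours, differed by 0.32 in macrophages and -1.66 in salivary gland (difference 2.08, SE 0.30, adjusted p = 0.000243).

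Sex limits all of these comparisons, as 2 of the 3 Irgm1-/- mice were male and no wild-type mouse was. With sex as a covariate 0 genes were higher and 10 lower (limma), with 672 higher and 640 lower at an unadjusted p under 0.05, and all 10 were among the 35. On the 4 female arrays alone, 1 against 3, Oas3 differed by 2.89, Oas2 by 2.17, Dhx58 by 1.64 and Mycl by 2.15. Cela2a differed there by -10.73 and Acta2 by -2.25, and the interferon list had a median of 0.79, the acinar list -6.34 and the fibroblast list -1.57. Other lists lay nearer 0 there than over all 6 arrays, as given beside them, with resident macrophage markers at -0.58, complement at -0.66, smooth muscle at -0.59 and goblet cells at 0.50, and absorptive epithelium changed sign.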

How the data were processed

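Each array's deposited scanner file gives red (Cy5) spot intensity as Agilent Feature Extraction 11.5.1.1 wrote it, per the file headers, with background subtracted within the array and no scaling between arrays. The detection and outlier flags used to filter probes are also per the file headers. The authors' deposited value table, also in intensity units, matched quantile-normalized values (Spearman correlation of at least 0.953 with the scanner values) and served as an alternative. Control spots and outlier spots (0.52%) were left out, no spot was saturated, and log2 processed signal was set to the 75th percentile of each array. Of 39429 probes, 27508 were named through RefSeq accessions and the others from the files. Where several probes shared a gene, the one brightest on average across the series stood for it, giving a value for each of 24325 genes, and 17110 genes well above background on at least 3 of the 6 arrays were tested with limma 3.58.1 (R 4.3.3), with Benjamini-Hochberg adjustment at 0.05. The tests were checked on simulated data.

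Same-numbered mice share an age and a slide, though age does not separate mouse 2 from mouse 3. Their deviations from the group means correlated at 0.50, 0.29 and 0.66 over genes, so the numbers were taken to pair the mice. These correlations come from the same arrays that the block was then fitted to. Small intestine and macrophage arrays were tied to the same animals through animal numbers in the file names. The salivary gland's own differences were scaled to the percentile of probes detected on all its arrays. The macrophage arrays lay on 2 slides. Array number limits the precision.

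Named genes were the largest called changes in each direction, up to 4 called members of each of 52 gene lists (or the 2 of smallest p), a set of standard genes and the smallest p-values of each tissue comparison. The members and lists were chosen with earlier results of these data known. Alternatives were other scalings, background correction, probe filters and choices, a slide block, a mouse number block, sex as a covariate, each array left out, the authors' table and, added after seeing the data, the female arrays alone. Single values of some list members are not reported here.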

Additional observations from a re-analysis of the deposited data

Results flagged for a closer look

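The following genotype differences differed between tissues by the interaction test in limma over all 20 arrays, as macrophages minus the other tissue on the log2 scale, and were the 5 smallest p-values on each side. Against small intestine, the difference was more positive in macrophages for Pla2g2f (2.49), Fut4 (2.14), Idi1 (2.11), Svip (1.56) and Rida (1.18). It was more negative for Thg1l (-3.97), Cel (-6.64), Ctrb1 (-6.67), Reg1 (-7.51) and Cpb1 (-9.04). Against salivary gland, it was more positive for Thg1l (2.51), Slc12a2, an ion cotransporter (2.10), Nnt (2.08), Svip (1.55) and Rida (1.25). It was more negative for Apol9a (-2.80), B2m (-2.97), Apol9b (-3.69), Prss1 (-5.46) and Cel (-6.61). Reg1, Cpb1 and Prss1 passed the macrophage filter through the wild-type arrays alone, and Thg1l through the Irgm1-/- arrays alone. The direction of their macrophage difference was thereby set.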

How the results depend on the processing

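All 39 called genes kept their direction in every alternative that tested them, while the counts of calls moved. Genes higher and lower numbered 17 and 191 with each array set to its median, 9 and 64 with quantile normalization, 22 and 305 with normexp, and 7 and 57 with an intensity trend. They numbered 360 and 947 with the mouse number as a replicate block, 205 and 716 with all 20 arrays in 1 fit, 0 and 10 with sex as a covariate and 0 and 10 on the female arrays alone (439 and 677 at an unadjusted p under 0.05). With no filter on dim probes 1 gene was higher, within slide 1 also 1, and with slide as a block 7. Leaving out 1 array at a time gave 1 to 3 genes higher and 17 to 39 lower. The lowest counts came without either Irgm1-/- mouse 1 or 2 (1 higher each) and without wild-type mouse 2 (17 lower). The macrophage against small intestine count of 273 became 95 with median scaling, 447 with quantile normalization, 111 with no filter and 573 with the animal as a random block, and 42 to 864 with 1 array left out. The salivary gland count of 799 became 429 with median scaling and 436 with detection on every array, and 515 to 1200 with 1 array left out. The lowest and highest came without small intestine Irgm1-/- mouse 3 and wild-type macrophage mouse 1 for the first, and without macrophage Irgm1-/- mouse 1 and wild-type mouse 1 for the second. Median scaling left 4.21% and 2.1% of these calls more positive in macrophages, against 15.8% and 20.7%. The cause of these moves was not tested. Of 143 named genes, 15 that were not called changed sign in some alternative. With 3 mice a group, sex unequal and levels near background in many genes, single uncalled values are weakly determined.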
